A study of Mus musculus with 14 samples.

Results

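Drd2, Adora2a, Rgs9, Pde10a, Gnal, Ppp1r1b and Ecel1, genes known for high expression in the striatum or listed with striatal markers, were followed in RNA sequencing libraries of mouse cortex. They were taken by symbol and make up 7 of the 34193 genes in the deposited table of read counts. All 7 passed the filter on low counts that left 13815 genes. The libraries came from the cortex of 14 C57BL/6J mice aged 8 weeks. A heterozygous knockout of Dnmt3a, the gene of a de novo DNA methyltransferase, was carried by 7 mice, and the other 7 were their wild-type littermates. In either genotype there were 4 females and 3 males. The labels name no treatment and give no further detail of the knockout allele. The genes served as a check on dissection, since the striatum lies directly under the cortex, and the question was whether their levels moved together or singly from animal to animal, by genotype and by the number that opens each sample title, called the title prefix here. There were 6 prefixes, each with animals of both genotypes and of 1 sex, and the labels do not say what a prefix marks.

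The projection neurons of the striatum receive dopamine and cortical glutamate and fall into a direct and an indirect pathway. Cells of the indirect pathway carry the dopamine D2 receptor (Drd2), which lowers cyclic AMP, and the adenosine receptor encoded by Adora2a, which raises it through the G protein alpha subunit encoded by Gnal. Rgs9 speeds the shut-off of G proteins behind the D2 receptor, Pde10a breaks down cyclic AMP and cyclic GMP, and Ppp1r1b encodes a phosphoprotein that inhibits protein phosphatase 1 once protein kinase A has phosphorylated it. Ecel1 encodes a membrane metallopeptidase of the neprilysin family and has no known place in this cascade. Adora2a, Rgs9, Pde10a and Ppp1r1b are far higher in striatum than in cortex, whereas Gnal is also used elsewhere in the forebrain.

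Total counts per animal lay between 8951835 and 14335406. Dnmt3a lay between 84.3 and 118 CPM (read counts scaled by TMM library sizes) in heterozygotes and between 124 and 164 CPM in wild-type mice, without overlap. Cortical identity was checked with 8 markers of cortical projection neurons, all of which were detected in every animal. Slc17a7, the vesicular glutamate transporter of cortical excitatory neurons, was at 1427 CPM on average and at no less than 1054 CPM in any animal. The 6 animals of prefixes 119 and 141 stand apart from the 8 of prefixes 046, 047, 048 and 139 across many genes, and the correlations with the genes and the genotype comparison are also given for each of these sets. Mitochondrial transcripts took a higher share of counts in every animal of prefixes 119 and 141 than in any of the other 8.

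RefSeq promoter windows on GRCm38.p6, from 250 bases before to 50 after a start site, were read for 4 of the 7 genes. The windows of 3 genes are printed in the direction of transcription to set Drd2 and Rgs9, which moved together in these libraries, beside Ecel1, which followed them less closely. Capitals mark the GC box GGGCGG, read on both strands, and TATAAA, also read on both strands. The windows are chr9:49340153-49340452 on the plus strand for Drd2, chr11:109298132-109298431 on the minus strand for Rgs9 and chr1:87156307-87156606 on the minus strand for Ecel1.
Drd2: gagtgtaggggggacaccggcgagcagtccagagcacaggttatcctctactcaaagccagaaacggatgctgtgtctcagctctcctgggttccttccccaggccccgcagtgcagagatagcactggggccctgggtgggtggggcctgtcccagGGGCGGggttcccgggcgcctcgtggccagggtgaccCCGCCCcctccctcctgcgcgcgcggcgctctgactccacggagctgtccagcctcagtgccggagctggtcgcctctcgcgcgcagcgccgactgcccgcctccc
Rgs9: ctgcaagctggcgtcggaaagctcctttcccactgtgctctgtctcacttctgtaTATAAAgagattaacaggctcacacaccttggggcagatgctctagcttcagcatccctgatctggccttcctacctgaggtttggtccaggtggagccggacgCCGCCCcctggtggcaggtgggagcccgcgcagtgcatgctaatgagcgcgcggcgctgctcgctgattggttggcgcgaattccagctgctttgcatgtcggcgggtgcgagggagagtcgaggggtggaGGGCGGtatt
Ecel1: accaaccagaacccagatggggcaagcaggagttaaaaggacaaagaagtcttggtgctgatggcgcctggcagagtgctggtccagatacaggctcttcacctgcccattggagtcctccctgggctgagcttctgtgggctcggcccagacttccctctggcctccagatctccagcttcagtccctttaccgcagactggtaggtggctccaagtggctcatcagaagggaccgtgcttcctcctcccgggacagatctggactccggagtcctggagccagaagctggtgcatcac
The Drd2 window held 2 GC boxes and the Rgs9 window 2 GC boxes and 1 TATAAA, while none of these letters occurred in the Ecel1 window. A GC box was present in 35.7% and TATAAA in 13.6% of 32851 windows of the same length. The Drd2 and Rgs9 windows held 23 and 19 CpG dinucleotides, against 6 for Ecel1 and a median of 7 over all windows. Each of the 2 Pde10a windows held 1 GC box, and they held 23 and 5 CpG dinucleotides. The letters TGACGTCA, TGACAG and AGGTCA, read on both strands, were in no window of these 4 genes, and they occurred in 1.79%, 19.2% and 16.3% of all windows. These matches describe the sequence and were not tested against the measured levels.

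Per kilobase of exon, the median level over the 14 animals was 39.7 CPM for Ppp1r1b, 22.8 for Gnal and 15.5 for Pde10a. On the same per-kilobase scale it was 5.28 for Adora2a, 4.55 for Rgs9, 2.22 for Drd2 and 1.16 for Ecel1. The range of each gene over the animals overlapped that of its neighbour in this order.

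The receptors varied most between animals. Drd2 was at 3.47 CPM in the lowest, 7.14 in the median and 12.4 in the highest wild-type animal, and at 1.70, 4.64 and 14.02 CPM in heterozygotes. The highest level was in a heterozygote of prefix 046 and the next in a wild-type animal of prefix 048, and the lowest in a heterozygote of prefix 047, so the genotypes overlapped over most of the range. Over all 14 animals Drd2 averaged 6.46 ± 3.72 CPM (SD), an 8.25-fold spread from lowest to highest that rests on 15 to 166 reads. Adora2a ran from 8.58 CPM through a median of 20.9 to 53.3 CPM in wild-type animals and from 6.23 through 15.3 to 48.2 CPM in heterozygotes. The same pair of animals was at the top, in the opposite order, and the same heterozygote of prefix 047 at the bottom. Among the 13815 genes ranked by coefficient of variation, Adora2a (66.1%) was at place 7 and Drd2 (57.6%) at place 22, against a median of 13.4%. Counting error alone, taken at the mean count over the 14 animals, would give a coefficient of variation of 6.23% for Adora2a and 11.3% for Drd2. It is larger in the animals with the fewest reads.

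The regulators of receptor signalling shared their 2 highest animals and the lowest one with the receptors, over a smaller spread. Rgs9 lay at 21.9, 29.1 and 48.5 CPM in the lowest, median and highest wild-type animal and at 15.96, 29.0 and 52.7 CPM in heterozygotes. Pde10a lay at 118, 200.4 and 302 CPM in wild-type animals and at 93.7, 199 and 338 CPM in heterozygotes. Ppp1r1b lay at 83.2, 127 and 202 CPM in wild-type animals and at 77.1, 108 and 243 CPM in heterozygotes. For all of these genes the heterozygote of prefix 046 was highest, the wild-type animal of prefix 048 next and the heterozygote of prefix 047 lowest. The fold from lowest to highest animal was 3.30 for Rgs9, 3.60 for Pde10a and 3.15 for Ppp1r1b. Their coefficients of variation, 35.1%, 37.6% and 37.4%, were at places 620, 446 and 460 of 13815.

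Gnal varied little. Its level was 227, 267 and 297 CPM in the lowest, median and highest wild-type animal and 215, 244 and 310.2 CPM in heterozygotes, a 1.45-fold spread over all 14. The animals at both ends were those of the other signalling genes. Its coefficient of variation of 11.1% was below the median of all genes, and counting error would give 1.80%. Ecel1, the lowest of the genes at 15 to 77 reads, was at 2.64, 4.33 and 7.46 CPM in wild-type animals and at 1.24, 2.36 and 5.07 CPM in heterozygotes. Here the wild-type animal of prefix 048 was highest, and the lowest were both heterozygotes of prefix 141, which were at places 8 and 11 of 14 for Drd2. Ecel1 had a coefficient of variation of 45.2% (place 136), and counting error at its mean count would give 14.7%.

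**Figure D1:**
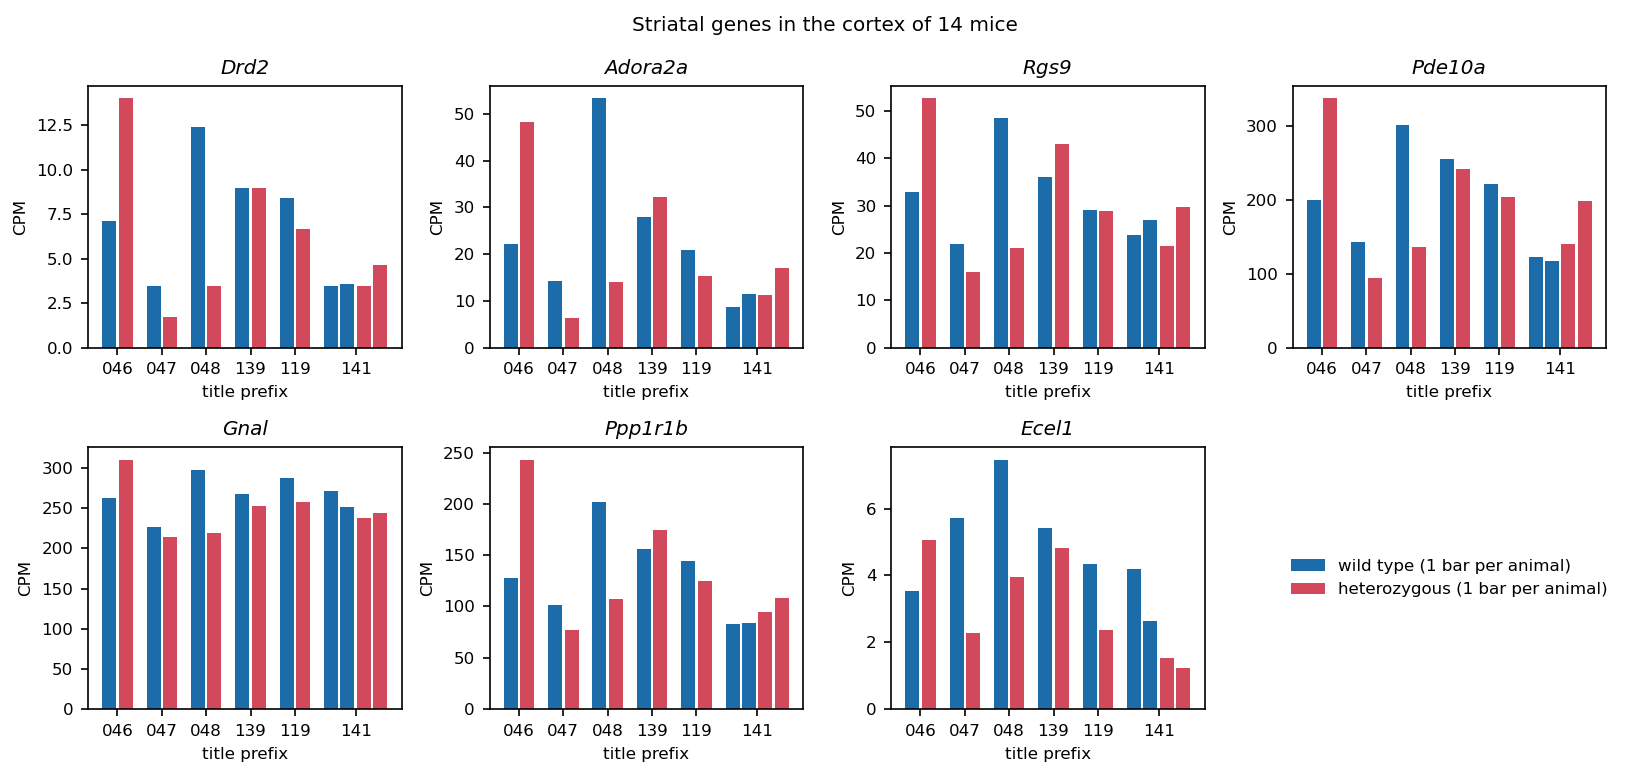
Level of each striatal gene in each of the 14 animals (CPM, 1 bar per animal, grouped by title prefix and coloured by genotype). The heterozygote of prefix 046 and the wild-type animal of prefix 048 carry the highest bars for Drd2, Adora2a, Rgs9, Pde10a and Ppp1r1b, whereas Gnal stays between 215 and 310.2 CPM.

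Drd2, Adora2a, Rgs9, Pde10a and Ppp1r1b varied together across animals, Gnal followed over a smaller range, and Ecel1 followed only loosely. This grouping was made after the values were seen. Pearson's r of log2 CPM over 14 animals was 0.915 to 0.975 for the 10 pairs among the first 5 genes, and Spearman's rho was 0.890 to 0.978. Adjusted over all 21 pairs, the two-sided permutation p (100000 resamples) lay between 2.62e-05 and 6.30e-05 for r and between 3.50e-05 and 0.000126 for rho. The unadjusted p of 1e-05 behind the lowest of these is the smallest that the resamples can give. The permutations, here and within the sets, take animals as independent, whereas animals of 1 prefix resembled each other. These p-values may therefore be too small. Without the 2 animals farthest from the median of the first gene of a pair, r was 0.865 to 0.958. The tightest pair was Drd2 with Pde10a (r = 0.975), a receptor of the indirect pathway and an enzyme of both pathways.

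Gnal correlated with each of these 5 genes, from r = 0.724 with Adora2a to r = 0.846 with Drd2 (rho 0.666 to 0.785), and all 5 pairs passed (permutation adjusted p = 0.000191 to 0.00447 for r and 0.00221 to 0.0146 for rho). These values leaned on the extreme animals. Without the 2 farthest animals r was 0.492 to 0.737, and without the 2 animals highest in Drd2, a setting chosen after the data were seen, 2 of the 5 pairs passed. All 10 pairs among the other 5 genes passed in that setting (r = 0.839 to 0.959).

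Ecel1 gave r = 0.456 to 0.583 with the other 6 genes (rho 0.481 to 0.609). By r, 2 of these 6 pairs passed, those with Adora2a (r = 0.583) and Ppp1r1b (r = 0.580), each at a permutation adjusted p of 0.0360, and by rho 3 passed (adjusted p of the 6 pairs from 0.0300 to 0.0809). Without the 2 farthest animals r was 0.361 to 0.474. Neither pair passed without heterozygous replicate 2, 3, 4 or 6 or without wild type replicate 1, 4, 5 or 7, where the count of Ecel1 pairs was 0, and the count was 3 without heterozygous replicate 5 or wild type replicate 6 and 5 without heterozygous replicate 7 or wild type replicate 3.

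Within the 8 animals of prefixes 046, 047, 048 and 139 the values of r were higher than over all 14, a difference that was not tested. The 10 pairs among Drd2, Adora2a, Rgs9, Pde10a and Ppp1r1b had r of 0.973 to 0.996 (exact permutation adjusted p = 0.000298 to 0.000365), Gnal had r of 0.925 to 0.948 with them, and Ecel1 had r of 0.610 to 0.788. By r 2 of the 6 Ecel1 pairs passed and by rho none (lowest exact permutation adjusted p = 0.126), and without the 2 farthest animals r was 0.184 to 0.667. In the 6 animals of prefixes 119 and 141 the range of levels was smaller, 3.47 to 8.44 CPM for Drd2, and r was 0.618 to 0.971 for the same 10 pairs. None of the 21 pairs passed there, with a smallest exact permutation adjusted p of 0.0583. Gnal gave 0.267 to 0.598 with the 5 genes in those animals, and Ecel1 gave -0.103 with Pde10a and 0.911 with Gnal. With sex, set of prefixes and genotype removed, the 10 pairs held at 0.919 to 0.983 and Gnal at 0.804 to 0.884, whereas of the Ecel1 pairs none passed by r (0.378 to 0.529) and 1 by rho, that with Gnal (rho = 0.600, permutation adjusted p = 0.0337). With the title prefix and genotype removed, the replicate block, the 10 pairs held at 0.883 to 0.986 and 1 of the 6 Ecel1 pairs passed by r. After either removal the permutation takes the 14 centred values as independent. Centring leaves fewer than 14 independent values, so these p-values tend to be too small.

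**Figure D2:**
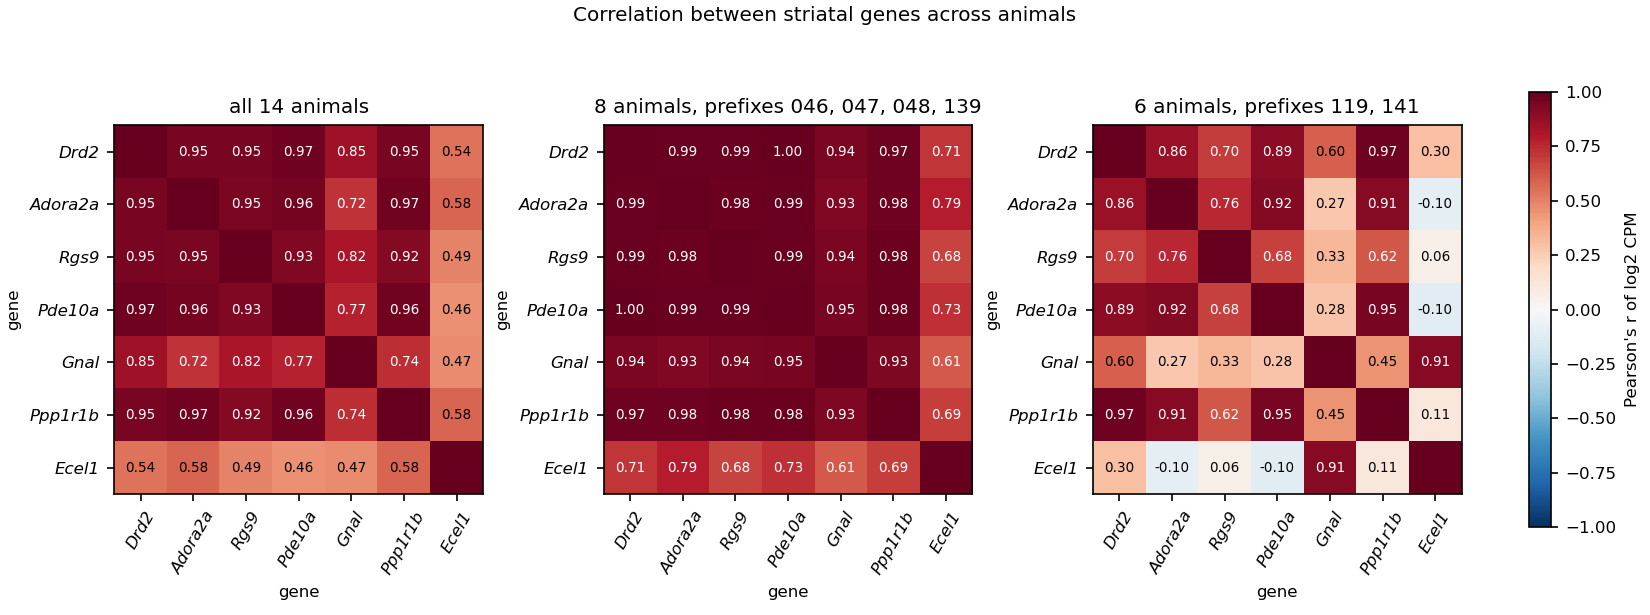
Pearson's r of log2 CPM for each pair of striatal genes over all 14 animals (left), the 8 animals of prefixes 046, 047, 048 and 139 (middle) and the 6 animals of prefixes 119 and 141 (right), with colour running from -1 to 1. The pairs among Drd2, Adora2a, Rgs9, Pde10a and Ppp1r1b are 0.915 or higher over all animals, and the Ecel1 row and column are paler in every panel except for Gnal in the 6 animals.

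How much of each level moved with Drd2 was described with a straight line on CPM. At a Drd2 level of 0 the line put Adora2a at -1.94 CPM. No error of this or of the other intercepts was computed. The line put Pde10a at 36.0%, Ppp1r1b at 36.3% and Rgs9 at 41.7% of its mean over the animals. Gnal was put at 83.5% and Ecel1 at 50.8%.

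**Figure D3:**
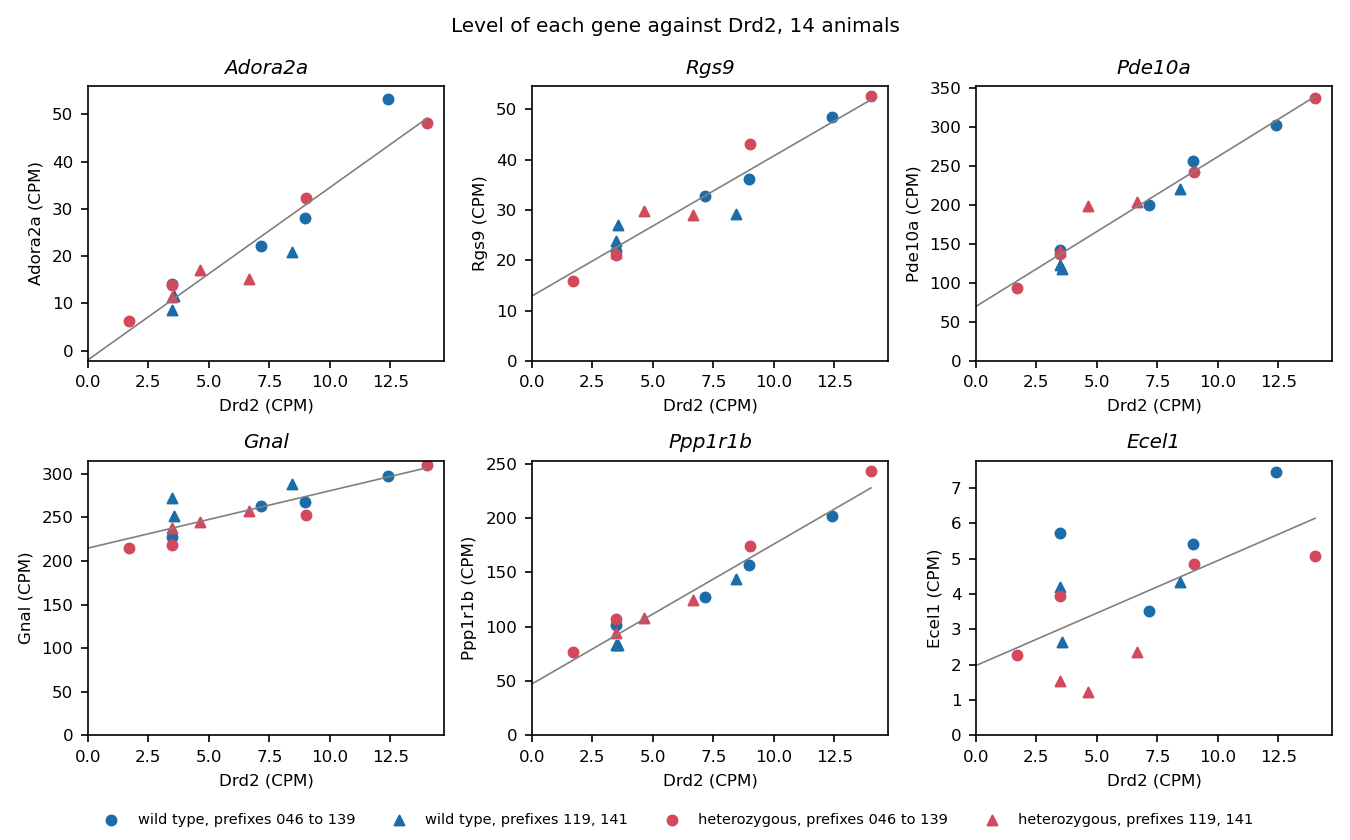
Level of each other striatal gene against Drd2 in 14 animals (CPM on both axes, 1 point per animal, colour for genotype, shape for the set of prefixes, grey line fitted by least squares). Points of both genotypes are mixed along the lines of the first 5 panels, and the line of Gnal starts at 214.8 CPM. Ecel1 is scattered, with the heterozygotes and most wild-type animals of prefixes 119 and 141 under its line.

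Genes most like each member over the 14 animals were named by highest r among the genes tested. For Drd2 they included Gpr6 (0.970), an orphan receptor gene of the indirect pathway, and Rxrg (0.958), a retinoid X receptor gene. For Adora2a they included Penk (0.979), the enkephalin precursor of the indirect pathway, and Drd1a (0.970), the dopamine D1 receptor of the direct pathway. Those of Pde10a included Drd1a (0.969) and Penk (0.961), and those of Ppp1r1b included Actn2 (0.968) and Penk (0.966). Rgs9 was nearest to Tmem90a (0.965), Sh3rf2 (0.956) and Lrrc10b (0.939). Adora2a and Pde10a thus had a gene of the direct and a gene of the indirect pathway among their nearest. Gnal was nearest to Adcy5 (0.903), the adenylyl cyclase of striatal neurons, Gng7 (0.901), a G protein gamma subunit gene, and Klhl13 (0.899). The nearest genes of Ecel1 were on none of the lists, with Ccdc107 at 0.944, Cacng5, a calcium channel gamma subunit gene, at 0.917 and Ehmt2, a histone methyltransferase gene, at 0.909. Among the genes ranked by r with Ecel1 the first member was Adora2a, at place 823, while Drd2 had 5 of the other 6 members at places 1 to 28.

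Over all 13814 other genes tested, 34 (0.246%) reached r of 0.8 with Drd2, and the median r was -0.00117. The 34 held every other member except Ecel1. Of 16 listed genes of striatal projection neurons of both pathways, 9 reached 0.8, among them Six3 and Rarb, and the list's median r was 0.864. In the indirect pathway 2 of 3 did so (Gpr6 and Penk, median 0.934), as did 3 of 7 of the direct pathway (Drd1a, Tac1 and Slc35d3, median 0.185). Both cholinergic genes tested, Chat and Slc5a7, which mark a kind of striatal interneuron but also cortical and basal forebrain cells, were at 0.901 and 0.925. The direct pathway genes that did not follow Drd2 included Chrm4 (0.0194) and Eya1 (0.0299), which were at no less than 31.8 and 8.04 CPM in any animal. In the 8 animals of prefixes 046, 047, 048 and 139 the median r of these lists was 0.944 for both pathways, 0.973 for the indirect and 0.671 for the direct pathway. In the 6 of prefixes 119 and 141 it was 0.727, 0.849 and 0.585. The genes at 0.8 or more were 12 of 16, 2 of 3 and 3 of 7 in the 8 animals. They were 6 of 16, 2 of 3 and 1 of 7 in the 6 animals.

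Over all 14 animals no listed marker of other neighbouring tissue followed Drd2 at that r. None of the tested genes reached r of 0.8 with Drd2 among 8 for cortical projection neurons (median 0.0913), 6 for claustrum and insula (median 0.154), 4 for hippocampus (median 0.0948), 6 for thalamus (median -0.110), 4 for hypothalamus and septum (median -0.119) and 4 for choroid plexus (median 0.242). The highest single values were 0.734 for Lct (hippocampus), 0.711 for Oprk1 (claustrum and insula) and 0.699 for Kl (choroid plexus). The lowest were -0.693 for Lef1 (thalamus) and -0.690 for Rorb (cortical projection neurons). With fewer animals some genes of these lists reached 0.8. In the 8 animals of prefixes 046, 047, 048 and 139, where 296 of all 13814 genes reached 0.8, 1 choroid plexus gene did. In the 6 of prefixes 119 and 141, where 875 did, 2 cortical genes, 1 thalamic gene and 1 choroid plexus gene reached it. In the 8 animals the median r was -0.356 for cortex, 0.455 for claustrum and insula and 0.0211 for hippocampus. It was 0.00359 for thalamus, -0.140 for hypothalamus and septum and 0.518 for choroid plexus. In the 6 animals these medians were 0.418, 0.0475, -0.146, 0.128, -0.369 and -0.452, in the same order. The 21 partners of the D2 and adenosine receptor cascade are widely used in cortical neurons too. Over all 14 animals 2 of them reached 0.8, Adcy5 and Pde1b, both also on the striatal list (median of the 21 genes 0.400). In the 8 animals 6 of the 21 reached it, and in the 6 animals 2 did. The summed level of the 16 genes of both striatal pathways had a range of 1392 to 2212 CPM in the wild type and of 1412 to 2353 CPM in heterozygotes. For the 3 indirect pathway genes the range was 40.5 to 147 CPM in the wild type and 39.1 to 141 CPM in heterozygotes. For cortical projection neurons it was 1660.3 to 2384 and 1872 to 2409.6 CPM. No listed gene was at 0 in all animals, and Isl1, Lhx8, Gbx2, Hcrt and Kcne2 were among those at 0 in at least 1. In bulk tissue fewer cells of a type and less RNA per cell cannot be told apart, and the part of striatal tissue in these levels was not tested.

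**Figure D4:**
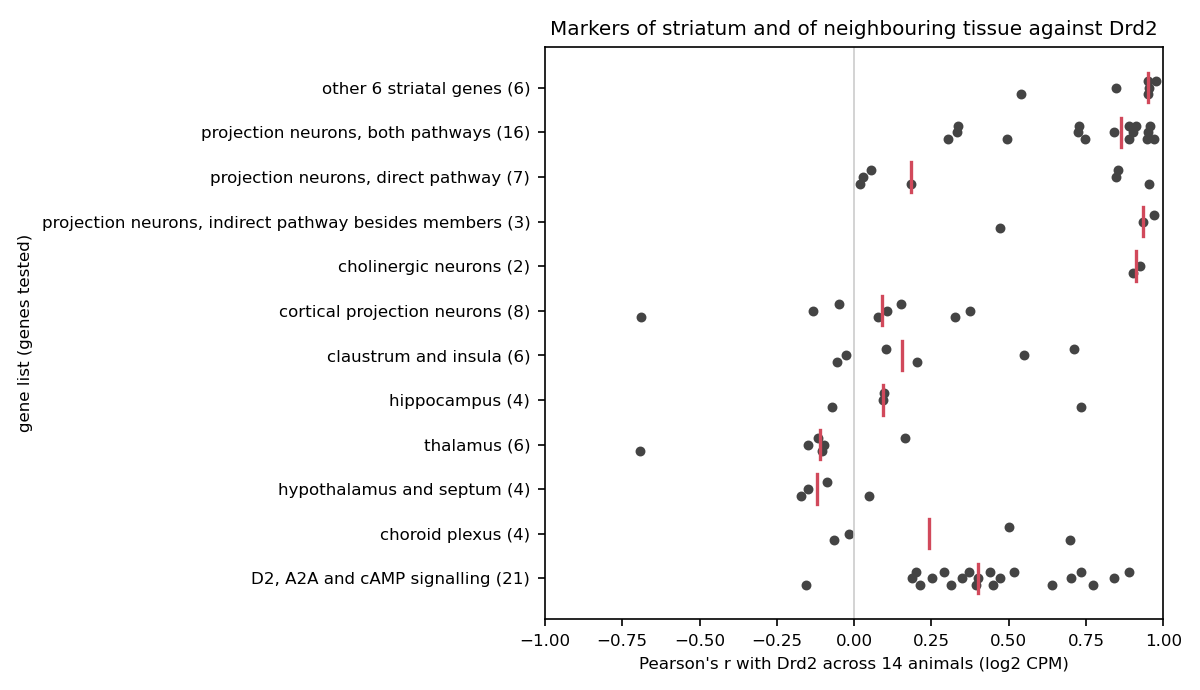
Pearson's r with Drd2 of log2 CPM over 14 animals for the genes of each list (1 point per gene, red bar for the list's median, number of genes tested in brackets). The lists of striatal projection and cholinergic neurons reach to the right of 0.8, whereas no gene of the cortical, claustral, hippocampal, thalamic, hypothalamic or choroid plexus lists does.

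Depth and signs of RNA quality were set beside the genes. Total count, the mitochondrial share and the share of ribosomal protein genes were each correlated with each gene, and none of the 21 relations passed (permutation test, smallest adjusted p = 0.730, by Pearson's r). Within the sets some relations had opposite signs, and none passed in either set. The share of ribosomal protein genes gave r = 0.589 with Drd2, 0.684 with Adora2a and 0.589 with Pde10a in the 8 animals of prefixes 046, 047, 048 and 139, and -0.612, -0.743 and -0.859 in the 6 of prefixes 119 and 141. The mitochondrial share gave r = 0.412 with Pde10a in the 8 animals and -0.833 in the 6. The smallest exact permutation adjusted p was 0.438 in the 8 and 0.408 in the 6 animals.

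Between genotypes, none of the 7 genes passed in the fit over all genes with sex as a term, in which 2 of 13815 genes (0.0145%) passed at an adjusted p under 0.05 and 552 had an unadjusted p under 0.05 (edgeR's quasi-likelihood test). DESeq2 called 12 genes (0.074%), none of them among the 7. Drd2 had a log2 fold change of -0.14 (SE 0.333, heterozygous over wild type) and Adora2a of -0.10 (SE 0.405). Rgs9 had -0.04, Pde10a 0.00 and Ppp1r1b 0.06. The 95% intervals were wide, from 0.558-fold to 1.48-fold for Drd2, from 0.512-fold to 1.71-fold for Adora2a and from 0.754-fold to 1.43-fold for Ppp1r1b. A difference within these bounds remains compatible with the values of these animals, and the size of difference that could be detected was not computed. Gnal had -0.10 (SE 0.0739) with the narrowest interval, 0.835-fold to 1.04-fold.

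Ecel1 had the lowest value of the 7, a log2 fold change of -0.67 (SE 0.278), with an unadjusted p of 0.0263 (adjusted p = 0.978 by edgeR). Its mean level was 4.76 ± 1.59 CPM in the wild type against 3.03 ± 1.57 CPM in heterozygotes (SD, n = 7 each), and the ranges overlapped. The fit with sex has no block for the title prefix. With that block instead of the sex term the Ecel1 value was -0.66 (SE 0.197, unadjusted p = 0.00356, adjusted p = 0.169 by edgeR). That fit called 56 genes (0.405%) and none of the 7, and 1782 genes had an unadjusted p under 0.05. Gnal had -0.11 in it (SE 0.0575, unadjusted p = 0.0696, adjusted p = 0.432 by edgeR). The authors' deposited DESeq comparison gave Ecel1 a log2 fold change of -0.22 with an unadjusted p of 0.000761 and an adjusted p of 0.135. The other 6 genes had adjusted p of 0.726 to 0.988 there. The authors' fold changes were smaller in size than those of the sex fit for each of the 7 genes, and the scales were not matched. With the log2 CPM of Drd2 added to sex, a term chosen after the data were seen, Ecel1 kept -0.59 (adjusted p = 0.947 by edgeR).

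**Figure D5:**
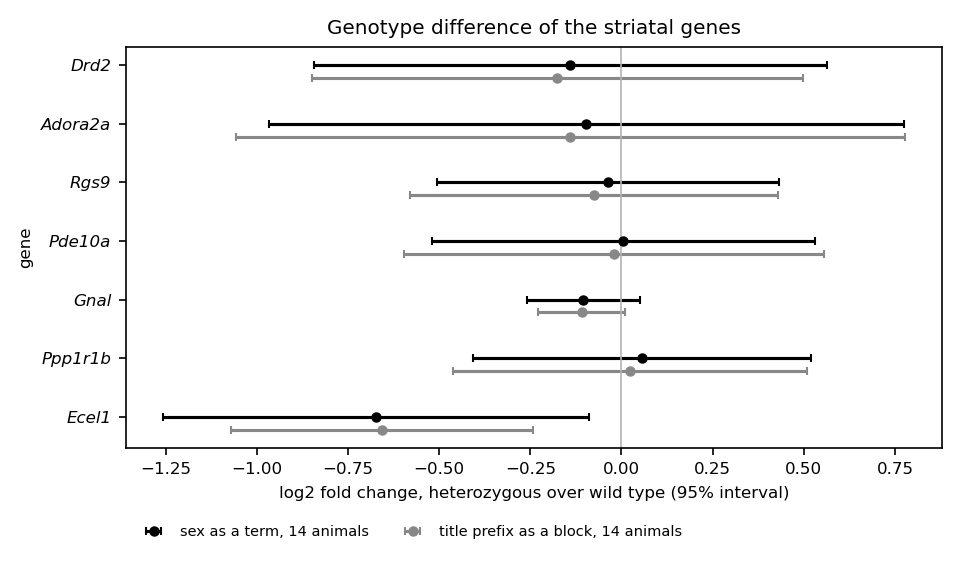
Log2 fold change of each striatal gene, heterozygous over wild type, with its 95% interval, from the fit with sex (black) and from the fit with the title prefix as a block (grey), 14 animals each. Every interval except that of Ecel1 includes 0, and Ecel1 did not pass after adjustment over all genes.

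The direction of the genotype difference changed from prefix to prefix in the genes that moved together. In prefix 048 the heterozygote held 0.281 times the Drd2 level of its wild-type counterpart, in prefix 047 0.490 times, and in prefix 119 0.789 times. In prefix 046 the ratio was 1.96, in prefix 139 1.00 and in prefix 141, with 2 animals of each genotype, 1.16. Adora2a, Rgs9, Pde10a and Ppp1r1b likewise had prefixes on either side of 1. The ratio of Adora2a ranged from 0.262 in prefix 048 to 2.18 in prefix 046. With any ratio under 1 counted as lower, Ecel1 was lower in heterozygotes in 5 of 6 prefixes, with ratios of 0.396 to 1.43, and Gnal in 5 of 6, with ratios of 0.736 to 1.18. The share of all genes with 5 of 6 prefixes in 1 direction was not counted.

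Within the 8 animals of prefixes 046, 047, 048 and 139 alone, no gene of the table passed between genotypes in the edgeR fit, where the unadjusted p of 609 was under 0.05, and Ecel1 had -0.43 (SE 0.242). Within the 6 animals of prefixes 119 and 141 alone, 2304 of 13881 genes (16.6%) passed, 1071 of them lower in heterozygotes (7.72%). Ecel1 was the 1 member among these, at -1.11 (SE 0.253, adjusted p = 0.00270 by edgeR), and its 3 wild-type animals (2.64 to 4.33 CPM) lay above its 3 heterozygotes (1.24 to 2.36 CPM). The share of all genes whose 3 and 3 animals did not overlap was not counted. Signs of RNA quality moved with genotype in these 6 animals. Mitochondrial transcripts took 1.51% of counts in the wild-type animal and 1.11% in the heterozygote of prefix 119, and 1.99% and 1.97% against 1.56% and 1.46% in prefix 141. Ribosomal protein genes took 0.231% against 0.203% in prefix 119, and 0.286% and 0.277% against 0.234% and 0.210% in prefix 141. Their part in these calls was not tested. The difference between the sets in the genotype effect did not pass for Ecel1 (-0.68, SE 0.396, adjusted p = 0.431 by edgeR) or for any other gene, with 2036 genes at an unadjusted p under 0.05 by edgeR. DESeq2 gave an adjusted p for this difference to 4031 genes and called 274 of them (6.8%). It gave none to Drd2, Adora2a, Rgs9 or Ecel1, and Pde10a, Gnal and Ppp1r1b were not called. Nor did the genotype effect differ between the sexes for any of the 13815 genes (0 by edgeR, where 144 had an unadjusted p under 0.05, and likewise 0 by DESeq2).

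Among title prefixes, 4591 of 13815 genes (33.2%) differed by edgeR's quasi-likelihood test, and of the 7 members Ecel1 was the only one (adjusted p = 0.0287). Its mean was lowest in prefix 141, at 2.40 ± 1.34 CPM (SD, n = 4), and highest in prefix 048, at 5.70 CPM in the mean of 2 animals. Drd2 (adjusted p = 0.0882) and Gnal (0.0931) came next by edgeR, and Adora2a, Rgs9, Pde10a and Ppp1r1b lay between 0.155 and 0.250. The share of members called was below that of all genes, while animals of 1 prefix could be far apart, as in prefix 048 with 3.49 and 12.4 CPM of Drd2. In prefix 139 they were close, at 8.973 and 9.004 CPM. The count of members called depended on single animals. It was 0 without heterozygous replicate 6 (27.5% of genes passed), heterozygous replicate 7 (34%) or wild type replicate 7 (24.6%), 2 without heterozygous replicate 2, where 32.6% of genes passed, and 6 without heterozygous replicate 1 (32.1%). It was 4 without wild type replicate 2 (31.9%) and 4 without wild type replicate 4 (30.9%), when Ecel1 was not among them. DESeq2 called 4 of the 7 among prefixes (Drd2, Adora2a, Ppp1r1b and Ecel1), where 29.9% of genes passed. With no filter on low counts 7 passed, against 27.6% of genes, in a fit that gave each gene the spread of the trend and none of its own.

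Between prefixes 119 and 141 and the other prefixes, with sex and genotype as terms, 5355 genes (38.8%) differed, 2714 of them lower in prefixes 119 and 141 (19.6%). Ecel1 was lower there, with a log2 difference of -0.81 (SE 0.206, adjusted p = 0.00357 by edgeR), and passed without any single animal. It was at 2.72 ± 1.30 CPM (SD, n = 6) against 4.78 ± 1.56 CPM (SD, n = 8). Adora2a had -0.82 (SE 0.420, adjusted p = 0.155 by edgeR), Drd2 -0.46, Ppp1r1b -0.41, Rgs9 -0.29 and Pde10a -0.29, none of which passed, and Gnal had 0.04. DESeq2 also called 1 of the 7, where 36.9% of genes passed, and with no filter 6 of the 7 passed, against 27.2% of genes. The fit takes the 14 animals as independent, whereas they come from 2 prefixes against 4, with prefix 141 giving 4 of the 6 animals, and leaving out single animals does not address this. The split was drawn with earlier results of these data known, and the sets also differ in the mitochondrial share, whose part in these values was not tested.

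Between the sexes, with genotype as a term, 1 of 13815 genes (0.00724%) passed and none of the 7 did in the edgeR fit, where 964 genes had an unadjusted p under 0.05. DESeq2 called 16 genes (0.0814%) and none of the 7. All 7 values were negative, female minus male, against a median of 0.00098 over all genes. The share of all genes with a negative value was not counted. Since 5 of the 7 genes moved together and Gnal followed, their signs are not separate observations. The values ran from -0.83 for Drd2 (SE 0.331, unadjusted p = 0.0230, adjusted p = 0.697 by edgeR) and -0.82 for Adora2a to -0.15 for Gnal. Drd2 was at 4.79 ± 2.71 CPM in 8 females and 8.69 ± 3.89 CPM in 6 males (SD). The highest animals of both genotypes, in prefixes 046 and 048, were male and the lowest was female. Each prefix held 1 sex, and sex was not tested against the spread among prefixes.

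The genotype and prefix fits were also read over the lists. By genotype, none of the tested genes of any list passed, in either direction. The 2 genes with the lowest p of each list are given, whatever their direction. They were Zfp503 (-0.42) and Foxp1 (0.13) for both striatal pathways, Eya1 (-0.27) and Tac1 (-0.23) for the direct and Sp9 (-0.09) and Gpr6 (-0.10) for the indirect pathway, and the cholinergic genes Chat and Slc5a7 had -0.24 and -0.20, all as log2 fold changes with an adjusted p of 0.978 to 0.985 by edgeR. Among cortical markers Neurod6 had 0.23 and Fezf2 0.18, in claustrum and insula Gnb4 -0.13 and Ntng2 -0.06, and in hippocampus Prox1 0.11 and Fibcd1 -0.16. Slc17a6 had 0.27 and Prkcd -0.19 among thalamic genes, Trh -0.86 and Zic1 -0.20 among hypothalamic and septal genes, and the choroid plexus gene Ttr, the transthyretin gene, had -0.92, with Clic6 at -0.50. Rgs8 (0.15) and Rgs4 (0.14) led the signalling partners. The median log2 fold change was -0.08 over the 16 genes of both pathways, with 10 of them negative, 0.05 over the 7 of the direct pathway, with 3 negative, and -0.09 over the 3 of the indirect pathway, all negative, against 0.00 over all genes tested.

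Among prefixes, where 33.2% of all genes passed, 6 of the 16 genes of both striatal pathways passed, with Actn2 (adjusted p = 0.000390 by edgeR) and Kcnh4 (0.00313) lowest. In the direct pathway 4 of 7 passed, led by Chrm4 and Pdyn, in the indirect pathway 1 of 3, Gpr6, and 1 of the 2 cholinergic genes, Slc5a7, whereas Sp9 and Chat did not pass. Of cortical markers 6 of 8 passed, with Slc17a7 and Emx1 lowest in p, and in claustrum and insula 2 of 6 passed, Oprk1 and Lxn. Of thalamic genes 3 of 6 passed, with Plekhg1 and Tcf7l2 lowest in p, and of hypothalamic and septal genes 1 of 4, Trh, with Pomc next. No hippocampal or choroid plexus gene of the 4 tested in each passed among prefixes, where Fibcd1 and Lct and, for choroid plexus, Ttr and Kl had the smallest p by edgeR (adjusted p = 0.0505 to 0.234), and DESeq2 was not read over the lists. Of the signalling partners 5 of 21 passed, with Prkaca and Gpr158 lowest in p. Chrm4, the muscarinic receptor gene with the smallest p of the striatal lists, did not follow Drd2 across animals, whereas Gpr6 and Slc5a7 did.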

How the data were processed

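The cortex RNA of 14 mice was sequenced as single-end reads of directional libraries, per the labels' protocols. The authors deposited 1 table with whole-number counts of reads per gene symbol for each animal, without normalization. The same deposited table holds the authors' own DESeq comparison of genotypes, per its column names, with a log2 fold change, a score that is its test statistic, and p-values before and after adjustment. The submitters' processing notes name Trim Galore, Bowtie, STAR and bedtools, with no version or role, and the mm9 build. Use of strand in the counting is not given in these sources, and reads of genes that overlap on opposite strands could be mixed.

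Genes were kept by filterByExpr by genotype (13815 genes, 99.9% of counts) and tested with edgeR 4.0.16 under R 4.3.3, which used TMM factors, robust dispersion and quasi-likelihood F tests. Adjusted p-values are Benjamini-Hochberg over all genes tested, with a threshold of 0.05, and the F statistic and fold change give the standard error. The genotype fit had sex as a term, the prefix fit genotype, the comparison of 2 sets of prefixes sex and genotype, and the sex fit genotype. Correlations used log2 CPM (prior count 2) with two-sided permutation tests, exact for 8 and 6 animals, adjusted over 21 pairs. Nothing in the labels says more of the replicates than that they are separate animals by title, and they are numbered in accession order within genotype. Exon lengths came from GENCODE M21 and promoters from RefSeq on GRCm38.p6, another build than that of the counts. Scripts for the fits were tested on simulated data.

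The members and lists were chosen with earlier results of these data known. Named were the members, the 3 non-member genes nearest to each by r, the 2 genes of each list with the lowest p by genotype and by prefix, and Dnmt3a. Other names, among them Six3, Rarb, Slc35d3, Adcy5 and Pde1b as examples of genes past r of 0.8 and the markers at 0, were chosen after their values were seen. A gene that the rule names is not reported here. Animals of both genotypes share title prefixes, and deviations from the genotype means correlated at 0.200 to 0.517 in the 9 same-prefix pairs, which is above the limit of 0.1 set for a block. Animals of 1 prefix share sex, so this does not separate the prefix from sex. Alternatives were DESeq2 1.42.0, its size factors, no filter, other covariates, each set alone, another prior count and leaving out each animal. Gpr52 and Slc18a3 were not analysed here.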

Additional observations from a re-analysis of the deposited data

How the results depend on the processing

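Without each animal in turn, no member passed between genotypes, and the log2 fold changes ranged from -0.40 to 0.077 for Drd2, -0.37 to 0.15 for Adora2a, -0.20 to 0.069 for Rgs9, -0.14 to 0.17 for Pde10a and -0.11 to 0.18 for Ppp1r1b, so these had no settled direction, while Gnal (-0.16 to -0.06) and Ecel1 (-0.89 to -0.54) kept theirs. Pde10a was at -0.022 with the replicate block, -0.0096 with no covariate, -0.16 in prefixes 046, 047, 048 and 139 alone and -0.053 without the 2 animals highest in Drd2, where Ppp1r1b was at -0.016. Adora2a was at 0.10 in prefixes 119 and 141 alone and, with Drd2 as a term, at 0.051, where Rgs9 was at 0.047. In prefixes 119 and 141 alone 1 member passed between genotypes. Among prefixes 7 members passed with no filter, 4 by DESeq2 and between 0 and 6 without 1 animal. Between the sets of prefixes 6 passed with no filter. In both unfiltered fits edgeR gave each gene the spread of the trend and none of its own (prior degrees of freedom without limit), against medians of 16.3 and 14.8 with the filter. Of the correlations, 0 of 21 pairs passed in prefixes 119 and 141 alone, where Adora2a with Ecel1 was at -0.097 and Pde10a with Ecel1 at -0.10. The replicate block moved the count of genes called between genotypes from 2 to 56 and changed no call of a member there. It left 16 pairs past the threshold against 17, by a permutation that takes centred values as independent. At the mean counts of Drd2 and Ecel1, counting error would give coefficients of variation of 11.3% and 14.7%, against 57.6% and 45.2% seen. Both genes had 15 reads in their lowest animals, where counting error is larger.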
